A study of Saccharomyces cerevisiae with 18 samples.

Results

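The cytosolic ribosomal protein genes of budding yeast (Saccharomyces cerevisiae) were followed at the level of messenger RNA in 4 strains that differ at FES1. A gene was taken as a member when its symbol was RPL (large subunit) or RPS (small subunit) with a number and an optional final A or B, or was RPP0, RPP1A, RPP1B, RPP2A or RPP2B (the acidic stalk of the large subunit). This gave 137 members among the 7130 genes of the count table: 76 of the large subunit, 56 of the small subunit and 5 of the stalk. All 137 had enough counts to be tested. By name, 118 members form 59 pairs of an A and a B copy, and 19 have no such partner.

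Each group holds 3 libraries of log-phase cells kept at 25 °C in YPD, a rich medium with glucose. Each group is 1 strain. The strains are WT (CAY1015), fes1Δ (CAY1221, labelled as the deletion of FES1), fes1ΔS (CAY1290) and fes1ΔL (CAY1256), the last pair named for the S and L forms of FES1. The Fes1 protein releases nucleotide from Hsp70 chaperones, and its gene is known to give a short, cytosolic and a long, nuclear splice isoform. The series also has heat-shocked samples of WT and fes1Δ, which are not analysed here. The design text describes the libraries of a strain as separate RNA isolations, so the p-values measure the spread between isolations and not necessarily between cultures.

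As background, the yeast ribosome is built from a small and a large subunit, each of ribosomal RNA and many proteins, and most of these proteins are encoded by a pair of gene copies left by an ancient duplication of the genome. In most pairs the copies encode the same or nearly the same protein. Several pairs are known to balance their output by feedback of the protein on the splicing or termination of a copy's transcript. In fast growth these genes are among the most transcribed of the cell, driven by Rap1, Fhl1 and Ifh1 under the control of the TOR kinase, and they are known to fall together when yeast cells are stressed.

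Total counts ran from 7608550 to 10246711 per library, and the members held between 18.55% and 20.96% of them. The label of the deletion strain was not borne out by the counts of FES1. Its level was 157.9 ± 7.49 CPM (counts scaled to a common library size and composition, mean ± SD, n = 3) in WT. In the libraries labelled fes1Δ it was 158.6 ± 8.59 CPM. It was 145.9 ± 3.27 CPM in fes1ΔL and 1434 ± 80.2 CPM in fes1ΔS. URA3, a common marker gene, had 1868, 1866 and 1590 counts in the libraries labelled fes1Δ and 0 to 3 counts in the other 9. Counts per gene do not show which part of FES1 the reads cover, and whether its coding region is intact was not tested. The libraries labelled fes1Δ are therefore called by their label throughout.

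The members are compact genes rich in introns. In RefSeq's R64 annotation their coding lengths ran from 78 to 1164 bases with a median of 432, against a median of 1194 over all genes. An intron interrupts the coding part of 89 members (65.0%), against 318 of 6002 nuclear protein-coding genes (5.3%). RPL7A and RPL7B each have 2 introns in the coding part. In 21 pairs both copies encode an identical protein, in 28 pairs the proteins differ at 1 to 5 residues, and in 10 pairs at more. Protein identity was lowest in RPP1 at 59.63% and RPP2 at 61.82%. Coding identity between copies had a median of 93.17% and ranged from 69.21% to 99.39%, and the longest stretch shared without a difference ranged from 23 to 465 bases with a median of 70. The sources used here do not say how reads that match both copies were counted, so the level of a single copy is uncertain. If such reads were left out, the sum of a pair is too low as well. The clearest case is RPL41, a tiny basic protein of the large subunit, whose copies differ at 1 coding base.

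In WT, levels per kilobase of coding length (CPM per kb, the scale used for every comparison of levels between genes) had a median of 2672 for the large subunit, 3052 for the small subunit and 3589 for the stalk. The highest member was RPS31 at 10080 ± 594 CPM per kb, a gene that encodes a small-subunit protein fused to ubiquitin. RPS20, a protein of the head of the small subunit, was at 9821 ± 599, which is within the spread of RPS31. RPL41A followed at 7894 ± 2283, and its SD spans the level of RPS12, of the small subunit, at 7135 ± 594. The coding length of RPL41A is only 78 bases, so its rank depends strongly on the division by length. At the other end, RPL15B was at 104.2 ± 12.8 CPM per kb, far below every other member. Above it came RPL22B at 487.4 ± 37.8, whose SD spans the next genes RPS14B at 494.5 ± 9.80 and RPS9A at 516.0 ± 13.0, and then RPL7B at 576.0 ± 23.5. Each of these lowest 5 is the weaker copy of its pair.

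Levels summed over the copies of a protein spread less than the levels of single copies. Over the 78 proteins, the summed WT level had a median of 5096 CPM per kb, and the values at the 10th and 90th percentiles were 3681 and 7172, a ratio of 1.95. Over the 137 single copies the same percentiles were 1290 and 4748, a ratio of 3.68. Adding positive values tends to narrow a relative spread whichever genes are paired, so these ratios cannot tell whether copies balance each other. RPL29 was lowest at 1087 and RPL41 highest at 12550. If reads that match both copies were left out, the sums are too low for pairs with long shared stretches. The copies of RPP1 and of RPP2, which differ most in protein, were summed too. The rank of RPL41 rests on division by a coding length of 78 bases, since RPL41A was at 615.7 and RPL41B at 363.2 CPM in WT.

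Within pairs the copies ranged from equal to very unequal in WT. The lower copy held a median of 41.45% of the pair's counts, with a range of 2.06% to 50%. It held under 20% in 8 pairs and over 40% in 31. The most unequal pairs were RPL15, where the A copy held 97.67%, 98.23% and 97.93% of the pair's counts in the 3 WT libraries, RPS9, where A held 10.26%, 9.524% and 10.79%, RPS14, where A held 89.84%, 89.51% and 88.74%, and RPS22, where A held 86.47%, 86.71% and 84.24%. The most equal were RPS1 at a mean A share of 50.01%, RPS21 at 50% and RPP2 at 49.61%. The libraries of a pair scattered little: the SD of these 7 WT means ran from 0.281 to 1.55 percentage points.

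**Figure D1:**
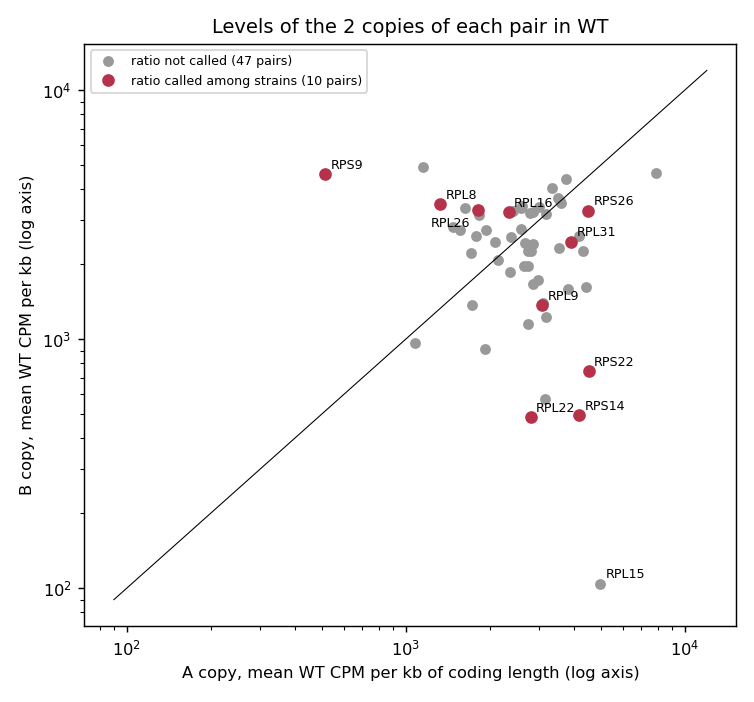
Mean level of the A copy (x axis) and of the B copy (y axis) of 57 of the 59 ribosomal protein pairs in WT, in CPM per kb of coding length on log axes, with the line of equal levels. Red points are 10 of the 11 pairs whose ratio of copies was called different among the 4 strains; RPL15, with a B copy at 104.2 CPM per kb, lies farthest from the line and is not among them.

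The first question was whether the ribosomal protein genes as a group differ between the strains. Their share of all counts was 20.2 ± 0.696% in WT, 20.26 ± 0.380% in fes1ΔL, 19.42 ± 0.761% in fes1ΔS and 19.78 ± 0.880% in the libraries labelled fes1Δ, and the ranges of the 4 strains overlap. Their summed level was 196043 ± 8143 CPM in WT, 196166 ± 5209 in fes1ΔL, 201041 ± 8237 in fes1ΔS and 203559 ± 8548 in the libraries labelled fes1Δ. In bulk samples, fewer cells that express a gene and less of its RNA per cell cannot be told apart.

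For the libraries labelled fes1Δ against WT, the median log2 fold change of the members was 0.0466, against 0.0005 over all 5719 genes tested, and 106 of 137 members were positive; with total counts in place of the composition scaling these medians were -0.0381 and -0.0847, so the sign of the members' median depends on the scaling. It was 0.0463 over the large-subunit members, 0.0435 over the small-subunit members and 0.1127 over the 5 stalk members. For fes1ΔS against WT the members' median was 0.0208 (-0.0719 with total counts) against -0.0033 over all genes (-0.0957), and for fes1ΔL against WT it was -0.0100 (-0.0064) against -0.0020 (0.0016). The spread of the members was narrow. Their log2 fold change lay within 0.2 of zero for 128 of 137 members (93.4%) in the libraries labelled fes1Δ, where 75.8% of all genes did. The corresponding shares were 92.0% against 80.0% in fes1ΔS and 99.3% against 92.7% in fes1ΔL.

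**Figure D2:**
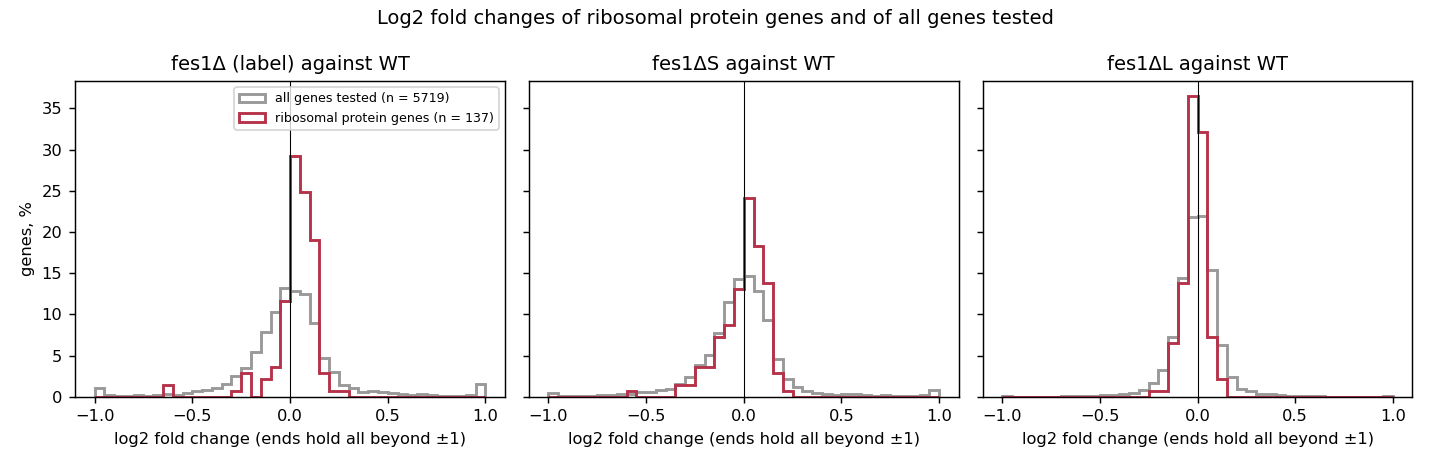
Distribution of log2 fold changes against WT for the 137 ribosomal protein genes (red) and all 5719 genes tested (grey), as a percentage of genes in bins of equal width, for the libraries labelled fes1Δ, for fes1ΔS and for fes1ΔL. The members sit close to zero in each panel, with medians of 0.0466, 0.0208 and -0.0100, and a few members form a tail on the lower side in the first and middle panels.

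Against that narrow background a small number of members were called, meaning an adjusted p under 0.05 in edgeR's quasi-likelihood test with Benjamini-Hochberg adjustment over all genes tested. In the libraries labelled fes1Δ against WT, 9 members were called, 3 higher and 6 lower. That is 6.57% of the members, where 12.9% of all genes were called (5.72% higher and 7.15% lower). With total counts the split was 1 higher and 9 lower. The count fell to 4 without WT replicate 1 and to 5 without fes1Δ replicate 2. In fes1ΔS against WT, 6 members were called, 2 higher and 4 lower, or 4.38% of the members, where 6.66% of all genes were called (3.22% higher and 3.44% lower). With total counts the split was 0 higher and 18 lower. The count was 3 without WT replicate 1, 3 without fes1ΔS replicate 2 and 12 without fes1Δ replicate 3, a library that enters only through the shared estimate of the spread.

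In fes1ΔL against WT no member was called, where 0.0699% of all genes were (0.035% higher and 0.035% lower). DESeq2 also called 0, and 1 member, RPL31A, had an unadjusted p under 0.05 (log2 fold change -0.20). For 130 of the 137 members the 95% interval of this fold change lay within 0.32 of zero on the log2 scale. The widest interval was that of RPL41A, from -0.57 to 0.31.

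Among the strains other than WT, 2 members were called lower in the libraries labelled fes1Δ than in fes1ΔS (RPL9B and RPL8A), where 2.47% of all genes were called (1.22% higher and 1.24% lower); only RPL9B was called without WT replicate 1 or 3, without fes1Δ replicate 2 or 3, or without any single library of fes1ΔL or fes1ΔS. Against fes1ΔL, 6 were called in the libraries labelled fes1Δ (RPS9A higher, and RPL8A, RPL9B, RPL18B, RPS14B and RPS22B lower), where 9.51% of all genes were called (4.41% higher and 5.11% lower). That count was 11 without WT replicate 2 and 3 without fes1Δ replicate 2. In fes1ΔS against fes1ΔL, 4 were called (RPS9A higher, and RPL9B, RPL18B and RPS22B lower), where 4.83% of all genes were called, 2.76% higher and 2.06% lower. The split of the members was 1 higher and 12 lower with total counts. WT and fes1ΔL, like the other strains, are shared between comparisons, so the counts above are not independent of each other. A pair of comparisons that share no library can be set side by side: over the 137 members, the fold changes of fes1Δ against fes1ΔL and of fes1ΔS against WT had r = 0.573 and rho = 0.408, with the same sign in 89. For fes1Δ against WT and fes1ΔS against fes1ΔL these were r = 0.773, rho = 0.724 and 103. These are correlations across genes, which are not independent replicates.

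Over the 6 comparisons 10 distinct members were called: RPL8A, RPL9A, RPL9B, RPL18B and RPL22B of the large subunit, RPS9A, RPS14B, RPS22B and RPS26B of the small subunit, and RPP0 of the stalk. Of these, 9 belong to a pair, as do 118 of all 137 members. Among the paired ones, 8 are the copy with fewer counts in WT, RPL9A being the exception. Over all 137 members, 59 are such a copy. An intron interrupts 5 of the 10 (RPL18B, RPL22B, RPS9A, RPS14B and RPS22B), where 65.0% of all members have one. In the libraries labelled fes1Δ against WT, the median log2 fold change was 0.0461 over the 89 members with an intron and 0.0481 over the 48 without. Over all 59 pairs the lower copy had the larger absolute fold change in 35.

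RPL9B showed the largest difference of any member. It encodes a copy of the large-subunit protein Rpl9, and in yeast it is known to be held down by its own product through early termination of its transcript. Its level in the 3 libraries was 781.7, 772.4 and 806.9 CPM in WT, 794.1, 774.2 and 810.6 in fes1ΔL, 663.4, 632.2 and 651.7 in fes1ΔS, and 498.6, 511.5 and 529.9 in those labelled fes1Δ. The WT and fes1ΔL libraries overlap and lie above all others, fes1ΔS lies between, and the libraries labelled fes1Δ are lowest, with no overlap between these 3 levels. Relative to WT, RPL9B differed by -0.62 on the log2 scale in the libraries labelled fes1Δ (SE 0.05, adjusted p = 6.83e-08) and -0.28 in fes1ΔS (adjusted p = 0.00167), and the difference between these strains was itself called at -0.34 (adjusted p = 0.00111).

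Its partner RPL9A, the stronger copy, moved the other way. RPL9A was at 1733, 1940 and 1643 CPM in WT, 1738, 1788 and 1942 in fes1ΔL, 1908, 2114 and 2036 in fes1ΔS, and 2114, 2017 and 2134 in the libraries labelled fes1Δ. The libraries labelled fes1Δ are all above those of WT, while fes1ΔS overlaps WT. The log2 fold change against WT was 0.24 in the libraries labelled fes1Δ (adjusted p = 0.0213), a call that ended without WT replicate 1 (adjusted p = 0.0692), without WT replicate 3 (0.120), without fes1Δ replicate 1 (0.0506) and with total counts (0.0813). In fes1ΔS it was 0.19 and not called (adjusted p = 0.0974).

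The copies of RPL9 differ at 36 of 576 coding bases, and the stretch from coding base 514 to 573 (counted from the A of the start codon, on the coding strand, R64) is shown for both because it holds 10 of those differences, in capitals. RPL9A lies on chromosome VII, minus strand, and RPL9B on chromosome XIV, plus strand.
RPL9A: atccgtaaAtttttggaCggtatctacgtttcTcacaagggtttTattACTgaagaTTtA
RPL9B: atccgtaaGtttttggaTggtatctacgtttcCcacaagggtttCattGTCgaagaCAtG
The longest stretch without a difference between these copies is 110 bases.

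RPS22B was lower to a like degree in fes1ΔS and in the libraries labelled fes1Δ. It encodes a copy of Rps22, a protein of the small subunit, and an intron of its transcript is known as a substrate of the ribonuclease Rnt1. Introns outside the coding part were not counted here. RPS22B was at 278.3, 297.9 and 300.8 CPM in WT, 284.0, 276.3 and 290.5 in fes1ΔL, 193.2, 198.8 and 193.3 in fes1ΔS, and 194.1, 196.1 and 188.2 in the libraries labelled fes1Δ. WT and fes1ΔL overlap, the other strains overlap with each other, and the lowest of the former, at 276.3, is above the highest of the latter, at 198.8. Relative to WT, its log2 fold change came to -0.60 in the libraries labelled fes1Δ (adjusted p = 1.13e-07) and -0.58 in fes1ΔS (adjusted p = 1.88e-07). The difference between these strains was -0.02, with a 95% interval from -0.13 to 0.09. The partner RPS22A, which has no intron in its coding part, was not called in any comparison, and its fold changes against WT were 0.06 and 0.03. Its 4 strain means ran from 1777 to 1848 CPM.

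The RPS22 copies differ at 41 of 393 coding bases. The stretch from base 43 to 102 is shown because it carries 11 of them, in capitals (R64, RPS22A on chromosome X, minus strand, and RPS22B on chromosome XII, plus strand). The longest stretch in common is 35 bases.
RPS22A: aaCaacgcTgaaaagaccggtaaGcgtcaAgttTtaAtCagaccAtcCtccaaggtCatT
RPS22B: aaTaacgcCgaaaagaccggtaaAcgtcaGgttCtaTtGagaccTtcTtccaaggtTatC

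RPL18B, which encodes a protein of the large subunit, was also lower in fes1ΔS and in the libraries labelled fes1Δ. Its level was 493.6, 533.0 and 458.5 CPM in WT, 456.5, 473.3 and 491.7 in fes1ΔL, 388.1, 393.9 and 408.4 in fes1ΔS, and 412.4, 406.7 and 409.3 in the libraries labelled fes1Δ. No library of fes1ΔS or of those labelled fes1Δ reached the lowest library of WT or fes1ΔL. The log2 fold change against WT was -0.27 (adjusted p = 0.00440) in the libraries labelled fes1Δ and -0.32 (adjusted p = 0.00165) in fes1ΔS. Against fes1ΔL it was -0.21 (adjusted p = 0.0302) and -0.26 (0.0130). The former was lost without fes1Δ replicate 2 or fes1ΔL replicate 2 or 3, and the latter without fes1ΔL replicate 3 or fes1ΔS replicate 1 or 2, with adjusted p up to 0.142.

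RPS9A was the member with the largest rise. Rps9 is a protein of the small subunit, and splicing of its transcripts is known to be restrained by the protein. RPS9A was at 302.6, 301.5 and 315.3 CPM in WT, 300.2, 292.0 and 292.1 in fes1ΔL, 359.3, 359.8 and 354.7 in fes1ΔS, and 373.5, 356.9 and 383.4 in the libraries labelled fes1Δ. The latter strains overlap with each other and lie above every WT and fes1ΔL library. The log2 fold change against WT was 0.28 (adjusted p = 0.00136) in the libraries labelled fes1Δ and 0.22 (adjusted p = 0.0114) in fes1ΔS, and the latter call ended with total counts (adjusted p = 0.0960), without WT replicate 1 (0.0524) and without fes1ΔS replicate 2 (0.0504). RPS9B, the stronger copy, was at 2706 ± 139 CPM in WT and between 2706 and 2714 in the other strains' means. Bases 220 to 279 of the copies hold 10 of their 54 coding differences, in capitals (R64, plus strand, RPS9A on chromosome XVI and RPS9B on chromosome II).
RPS9A: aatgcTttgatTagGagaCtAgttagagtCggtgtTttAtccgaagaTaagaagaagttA
RPS9B: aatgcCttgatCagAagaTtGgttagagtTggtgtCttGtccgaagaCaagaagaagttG

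Of the remaining copies of the small subunit, RPS14B, whose splicing is known to be repressed by the Rps14 protein, was at 201.7, 207.3 and 209.6 CPM in WT, 210.9, 198.5 and 222.6 in fes1ΔL, 162.0, 179.2 and 191.9 in fes1ΔS, and 183.2, 158.8 and 187.6 in the libraries labelled fes1Δ. The fes1ΔS libraries and those labelled fes1Δ overlap and lie below the other libraries. On the log2 scale its change against WT was -0.22 (adjusted p = 0.0447) in the libraries labelled fes1Δ and -0.22, not called, in fes1ΔS (adjusted p = 0.08). The former call ended without any single library of WT or fes1ΔL, without fes1Δ replicate 2 or without fes1ΔS replicate 2, with adjusted p up to 0.234. Against fes1ΔL the libraries labelled fes1Δ were lower by a called -0.26 (adjusted p = 0.0259), lost without fes1Δ replicate 2 or fes1ΔL replicate 1 or 3. RPS26B, a copy of a protein that lies at the exit channel of the messenger RNA, was at 1200, 1195 and 1154 CPM in WT and 997.5, 1034 and 1022 in fes1ΔS, with no overlap. It was called in fes1ΔS against WT alone, at -0.22 (adjusted p = 0.0389), and the call ended without any single library of WT or fes1ΔS and without fes1ΔL replicate 2 or 3, with adjusted p up to 0.128. The libraries labelled fes1Δ, at 1008, 1023 and 1194 CPM, overlap both.

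Among copies of the large subunit, RPL8A was lower in the libraries labelled fes1Δ against each of the other strains. It was at 1060, 1023 and 990.5 CPM in WT, 1014, 1011 and 1056 in fes1ΔL, 1043, 1021 and 1046 in fes1ΔS, and 962.9, 847.6 and 855.9 in the libraries labelled fes1Δ, which do not reach the others. The log2 fold changes were -0.20 against WT (adjusted p = 0.0230), -0.21 against fes1ΔL (0.0248) and -0.22 against fes1ΔS (0.0456). The first was lost without WT replicate 1 (adjusted p = 0.105) or fes1Δ replicate 2 (0.114). The call against fes1ΔL was lost without fes1Δ replicate 2 or 3 or any single library of fes1ΔL, with adjusted p up to 0.123. RPL22B, whose splicing is known to be inhibited by the Rpl22 protein, was at 178.5, 194.4 and 166.6 CPM in WT, 169.8, 170.6 and 171.7 in fes1ΔL, 145.3, 159.2 and 160.5 in fes1ΔS, and 146.8, 154.4 and 166.4 in the libraries labelled fes1Δ. The highest library labelled fes1Δ almost meets the lowest of WT. Its log2 fold change against WT was -0.21 (adjusted p = 0.0421) in the libraries labelled fes1Δ, a call lost without WT replicate 1 or 2, without fes1Δ replicate 1 or 2, without any single library of fes1ΔL and without fes1ΔS replicate 2 or 3, with adjusted p up to 0.147.

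The stalk recruits the translation factors that act on the ribosome. RPP0, which anchors it, was at 3670, 4036 and 3777 CPM in WT, 3913, 3840 and 4138 in fes1ΔL, 4217, 4507 and 4441 in fes1ΔS, and 4475, 4354 and 4161 in the libraries labelled fes1Δ. Every library of the latter strains is above every WT and fes1ΔL library. The log2 fold change against WT was 0.18 (adjusted p = 0.0415) in the libraries labelled fes1Δ and 0.20 (adjusted p = 0.0377) in fes1ΔS. With total counts these were 0.09 and 0.10 and not called (adjusted p = 0.208 and 0.169). The first call ended without WT replicate 1 or 3, fes1Δ replicate 1 or 2, or fes1ΔS replicate 2 or 3, and the call in fes1ΔS without WT replicate 1 or 3, fes1Δ replicate 2, fes1ΔL replicate 1, or fes1ΔS replicate 2 or 3, with adjusted p up to 0.173 over both. The genes of the P1 and P2 proteins that RPP0 carries were not called in any comparison. In the libraries labelled fes1Δ their log2 fold changes against WT were 0.10 for RPP1A, -0.02 for RPP1B, 0.12 for RPP2A and 0.11 for RPP2B. RPP1B was the least certain, with libraries from 640.7 to 1042 CPM in that group and an interval from -0.44 to 0.40.

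**Figure D3:**
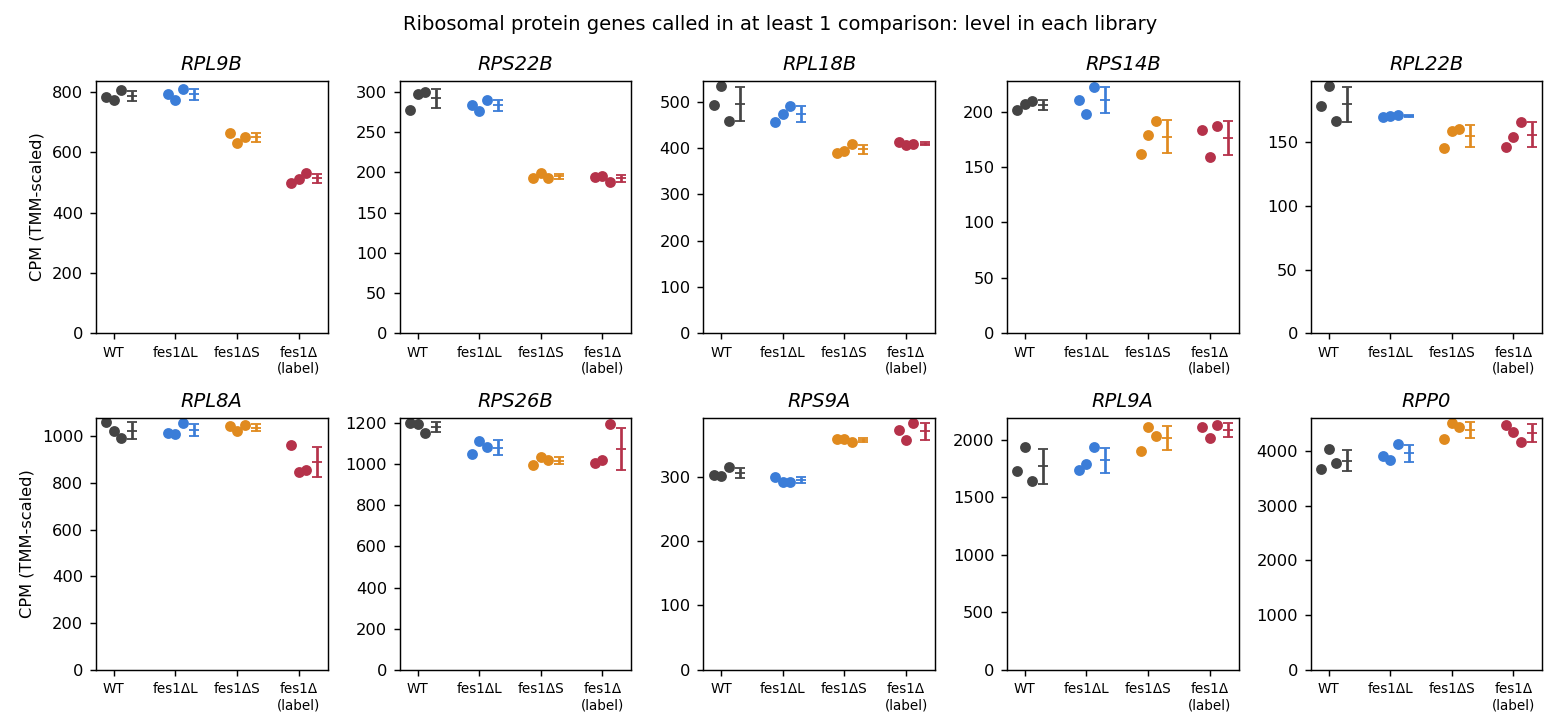
Level of the 10 called members in each library, in CPM on axes that start at 0; points are libraries and bars are the mean ± SD of 3 libraries. RPL9B falls from between 772.4 and 806.9 in WT to between 498.6 and 529.9 in the libraries labelled fes1Δ with fes1ΔS between them, RPS22B is low to the same degree in both of those strains, RPS9A and RPP0 are higher in both than in WT by a smaller step, and RPL9A is above WT in the libraries labelled fes1Δ while its fes1ΔS libraries overlap WT.

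The next question was whether the balance between paralogs differs among the strains. For each pair the log2 ratio of the A to the B copy was taken within each library, which does not depend on library size or scaling, and tested among the 4 strains with limma's moderated F test. The whole table holds 61 pairs named in this way with enough counts, of which 59 are ribosomal protein pairs and the others COX5 and NHP6, so the adjustment and the background are nearly those of the members themselves. Of the 61, 13 were called (21.3%), 11 of them ribosomal. Each of those 11 also had an exact permutation p under 0.05 over the 15400 ways to split the 12 libraries into 4 groups of 3, as did 6 further pairs. The count was 7 without fes1ΔL replicate 3 and 7 without fes1ΔS replicate 3.

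RPL9 shifted most. The A copy held 68.91%, 71.53% and 67.06% of the pair's counts in WT, 68.64%, 69.78% and 70.55% in fes1ΔL, 74.20%, 76.98% and 75.76% in fes1ΔS, and 80.92%, 79.77% and 80.11% in the libraries labelled fes1Δ. WT and fes1ΔL overlap, and the other strains each stand apart. The log2 ratio differed from WT by 0.86 (95% interval 0.69 to 1.02) in the libraries labelled fes1Δ and by 0.47 (0.31 to 0.63) in fes1ΔS, with an adjusted p of 9.66e-06 and an exact permutation p of 0.000584 among the strains. The summed level of the pair was 2559 ± 137 CPM in WT and 2602 ± 68.4 CPM in the libraries labelled fes1Δ.

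For RPS22 the mean A share was 85.81% in WT, 86.26% in fes1ΔL, 90.24% in fes1ΔS and 90.54% in the libraries labelled fes1Δ, and the highest WT or fes1ΔL library, at 86.71%, is below the lowest of the other strains, at 89.70%. The log2 ratio differed from WT by 0.66 (0.50 to 0.82) in the libraries labelled fes1Δ and by 0.61 (0.45 to 0.77) in fes1ΔS (adjusted p = 2.94e-05, exact permutation p = 0.00513). The summed level of the pair was 2069 ± 167 CPM in WT and 2041 ± 77.8 CPM in the libraries labelled fes1Δ.

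The RPL8 pair, of the large subunit, differed in another way. The A share was 28.51%, 26.64% and 27.62% in WT, 28.53%, 27.78% and 27.91% in fes1ΔL, 26.57%, 26.31% and 26.32% in fes1ΔS, and 24%, 23.24% and 22.34% in the libraries labelled fes1Δ. The libraries labelled fes1Δ are below all others, and fes1ΔS sits just under the lowest WT library. The log2 ratio differed from WT by -0.34 (-0.43 to -0.24) in the libraries labelled fes1Δ and by -0.09 (-0.18 to 0.00) in fes1ΔS (adjusted p = 0.000112 among the strains, exact permutation p = 0.000714).

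In RPS14, RPS9 and RPS26 the A share was higher in fes1ΔS and in the libraries labelled fes1Δ than in WT and fes1ΔL, and no library of the former strains overlapped the latter. The mean A share of RPS14 was 89.36% in WT, 89.04% in fes1ΔL, 91.05% in fes1ΔS and 91.28% in the libraries labelled fes1Δ (adjusted p = 0.000486, exact permutation p = 0.00370). For RPS9 it was 10.19%, 9.81%, 11.70% and 12.03% in the same order (adjusted p = 0.00192, exact permutation p = 0.00422). For RPS26 it was 57.84%, 58.16%, 61.12% and 61.04% (adjusted p = 0.0120, exact permutation p = 0.00864). In RPS9 the rise of A means a smaller imbalance, since A is the weak copy, while in RPS14 and RPS26 the stronger copy gained.

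RPL31 had its lowest A share in fes1ΔL: 59.66%, 58.72% and 59.31%, against 62.07%, 60.21% and 61.94% in WT (adjusted p = 0.0319, exact permutation p = 0.0178 among the strains). The widest difference was that of fes1ΔS from fes1ΔL, at 0.19 on the log2 scale, with the higher A share in fes1ΔS. The call was lost without any single library of fes1ΔL or without fes1ΔS replicate 2 or 3, with adjusted p up to 0.115. RPL16, RPL26 and RPL22 were also called. Their adjusted p-values were 0.0336, 0.0397 and 0.0422, their widest differences between strains were below 0.2 on the log2 scale, and each call was lost without WT replicate 1 or fes1Δ replicate 2 or 3, with adjusted p up to 0.202. RPL16 was also lost without fes1Δ replicate 1, fes1ΔL replicate 2 or 3, or fes1ΔS replicate 3. RPL26 was also lost without fes1ΔL replicate 1 or 3 or fes1ΔS replicate 1 or 3, and RPL22 without any other single library but WT replicate 3 and fes1ΔS replicate 1. For RPL22 the mean A share was 85.09% in WT and 86.60% in the libraries labelled fes1Δ.

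**Figure D4:**
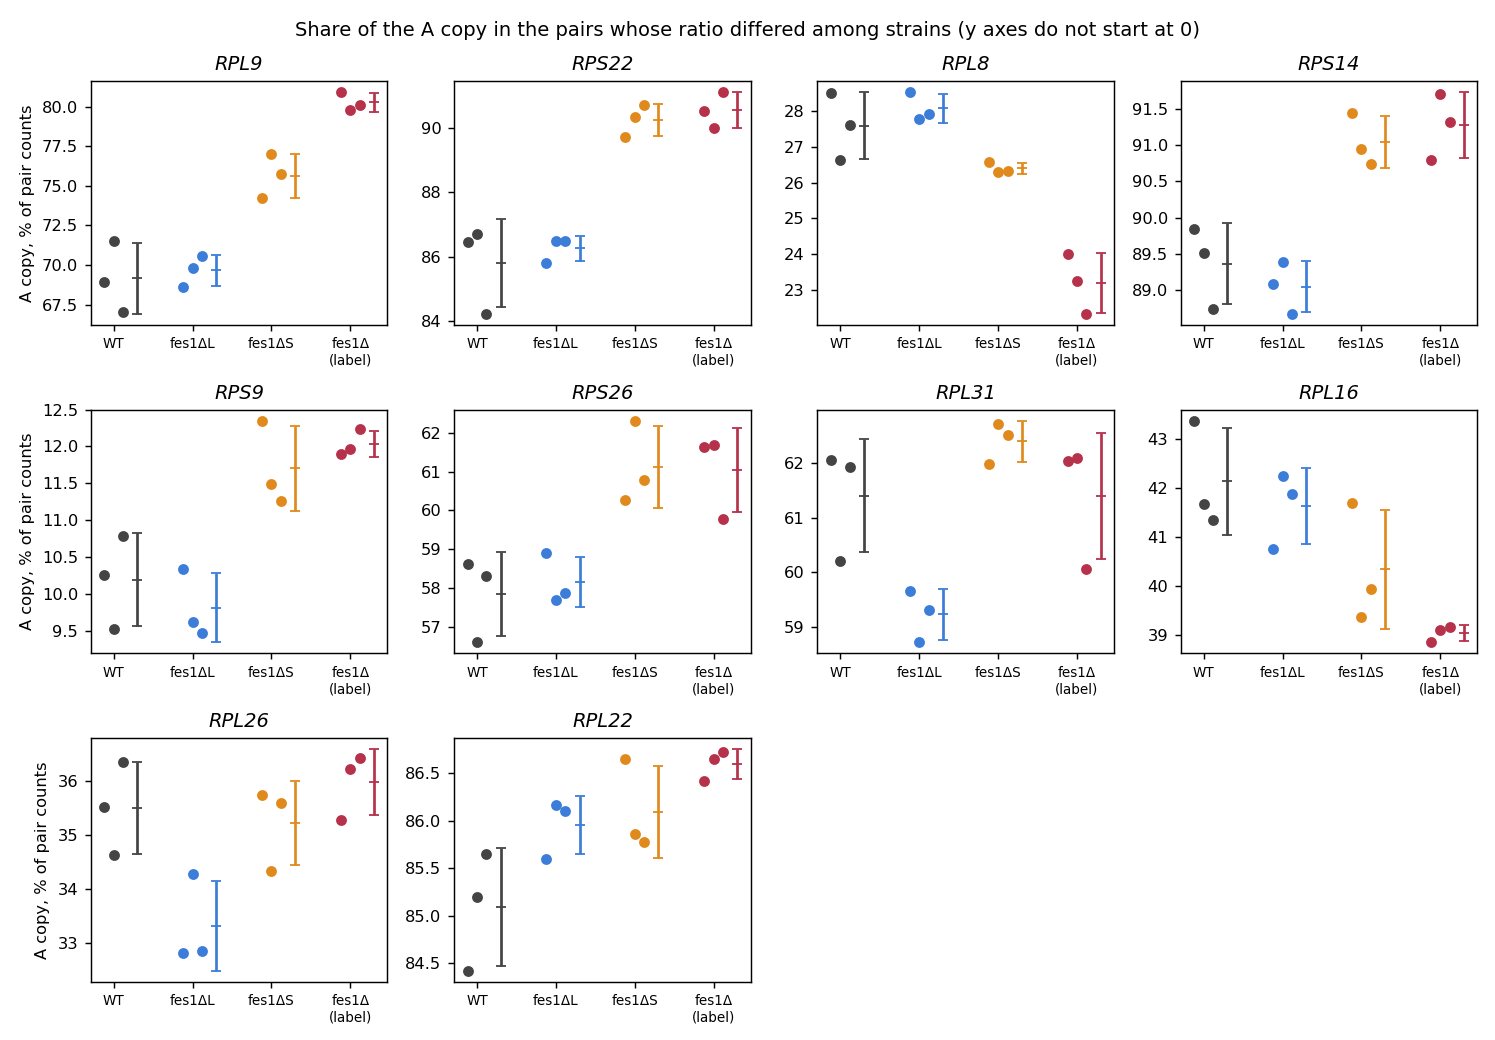
Share of the A copy in the counts of its pair, in percent, for 10 of the 11 called ribosomal protein pairs; points are libraries, bars are the mean ± SD of 3 libraries, and the y axes do not start at 0. In RPL9 the share rises from a mean of 69.17% in WT to 75.64% in fes1ΔS and 80.27% in the libraries labelled fes1Δ, in RPS22, RPS14, RPS9 and RPS26 those strains lie together above WT and fes1ΔL, and in RPL8 the libraries labelled fes1Δ stand alone below the rest.

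The other 48 ribosomal pairs were not called. Their widest difference between any strains had a median of 0.0795 on the log2 scale and reached 0.363 in RPL41. For the libraries labelled fes1Δ against WT, the 95% interval of the difference lay within 0.32 of zero on the log2 scale in 47 of these 48, and the same held for 46 in fes1ΔS and 44 in fes1ΔL. Unequal pairs were found among them: RPL15 had a mean A share of 97.94% in WT, 98.19% in fes1ΔL, 97.98% in fes1ΔS and 98.09% in the libraries labelled fes1Δ (adjusted p = 0.539). The equal pair RPS1, of the small subunit, stayed between 49.92% and 50.01% in its 4 strain means (adjusted p = 0.997). The longest identical stretch of the 11 called pairs ran from 23 to 114 bases, and 1 of the 11 encodes identical proteins, against 21 of all 59.

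The genes next to the called members were examined too. Beside RPL18B, TOS6 was higher in the libraries labelled fes1Δ than in WT (log2 fold change 0.31, adjusted p = 0.00418), opposite in sign to RPL18B. Beside RPS9A, MOT1 was higher (0.34, adjusted p = 0.0210), and beside RPS14B, SOP4 was lower (-0.19, adjusted p = 0.0401), each with the sign of the member. Beside RPS26B, COM2 was lower in the libraries labelled fes1Δ (-0.21, adjusted p = 0.0406) and was not called in fes1ΔS (-0.02), where RPS26B was. In fes1ΔS against WT none of the tested neighbours of the 10 called members was called. A neighbour here is the entry with the next start on either side in R64. For RPS22B these entries were YLR365W and SNR44, neither of them among the genes tested, and genes farther out were not looked up. RPL9B, RPP0, RPS9A and RPS26B each had only a single tested neighbour. The part of the neighbours in these results was not tested.

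Promoters were searched for a Rap1 motif, CACCC and ACA with 2 bases of any kind between them, on both strands, from 250 bases before to 50 after each gene's start in R64. It was present in 6 members (4.38%), RPL8A, RPL22B, RPL35B, RPL36A, RPL40B and RPS10B, and in 62 of 6001 promoters (1.03%). Of the 10 called members RPL8A and RPL22B hold it. The matches of these are shown in capitals on the coding strand, starting 240 bases before the start codon in RPL8A (chromosome VIII, minus strand) and 246 bases before it in RPL22B (chromosome VI, minus strand).
RPL8A: atgaagaaaaCACCCAAACAtatctaggcc
RPL22B: tcaaCACCCGTACAtattcagaga
A match describes these letters in this window and is not evidence of binding. Nor does a missing match show that a member lacks a Rap1 site, since other spellings and sites farther from the start were not searched. Among the members with a match, the nearest to the start lay a median of 215 and at most 246 bases before it, toward the far edge of the window.

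Genes that act on ribosomal protein genes, on ribosome biogenesis genes or on ribosomal proteins were described from lists chosen with earlier results of these data known. The first list holds 15 regulators of ribosomal protein genes or of ribosome biogenesis genes. Of these, 3 were higher and none lower in the libraries labelled fes1Δ against WT (median log2 fold change 0.12). In fes1ΔS, 2 were higher and none lower (median 0.09). None was called in fes1ΔL (median 0.05). Over all genes tested, 5.72% were called higher and 7.15% lower in the libraries labelled fes1Δ, and 3.22% and 3.44% in fes1ΔS. RAP1, FHL1, IFH1, HMO1 and SFP1, which act on the promoters, were among those not called. LST8, a subunit of the TOR complexes, was at 77.66, 71.41 and 68.12 CPM in WT, 73.65, 77.28 and 79.57 in fes1ΔL, 135.4, 131.7 and 133.6 in fes1ΔS, and 158.3, 166.2 and 170.5 in the libraries labelled fes1Δ. Each of the last 2 strains stands apart from all others. The log2 fold change against WT was 1.19 (adjusted p = 1.37e-11) in the libraries labelled fes1Δ and 0.88 (adjusted p = 2.04e-09) in fes1ΔS.

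The next gene on the chromosome, SIS1, which encodes a J-domain partner of Hsp70, had fold changes of 1.48 and 1.2 in the same comparisons, and its part in the LST8 values was not tested. SCH9, a kinase downstream of TOR, was higher at 0.23 (adjusted p = 0.0168) and 0.25 (0.0157). Both calls ended with total counts and without WT replicate 1, the first also without fes1Δ replicate 1 and the other without fes1ΔS replicate 2, with adjusted p up to 0.0899. DOT6, a repressor of ribosome biogenesis genes, was higher in the libraries labelled fes1Δ at 0.39 (adjusted p = 0.0106). CRF1, a corepressor of ribosomal protein genes, was called in the libraries labelled fes1Δ against fes1ΔL alone (0.88, adjusted p = 0.0228), with 16 to 37 counts per library in these strains, and the call ended with DESeq2, without fes1Δ replicate 2 and without fes1ΔL replicate 1 or 3, with adjusted p up to 0.0954. Its neighbour YDR222W was also higher in that comparison (1.04, adjusted p = 0.000118).

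Of 11 dedicated chaperones that escort newly made ribosomal proteins, 1 was higher and none lower in the libraries labelled fes1Δ and in fes1ΔS, and none was called in fes1ΔL against WT. This was YAR1, the chaperone of Rps3, at 125.5, 136.0 and 124.1 CPM in WT, 122.3, 129.3 and 128.3 in fes1ΔL, 178.9, 189.3 and 185.2 in fes1ΔS, and 173.1, 189.3 and 206.9 in the libraries labelled fes1Δ, with no overlap between the first and the last pair of strains. Its log2 fold change against WT was 0.56 (adjusted p = 4.89e-06) and 0.52 in fes1ΔS (1.53e-05). The adjacent gene HSP82, which encodes an Hsp90 chaperone, had fold changes of 2.26 and 2.09, and its part in the YAR1 values was not tested. Of 5 factors bound to ribosomes, none was called in the libraries labelled fes1Δ or in fes1ΔL against WT. ARB1, an ATPase of ribosome assembly and recycling, was higher in fes1ΔS against WT (0.26, adjusted p = 0.0266), as was its neighbour EDC2 (0.57); the ARB1 call ended with total counts, without WT replicate 1 or 3 and without any single fes1ΔS library, with adjusted p up to 0.131. STM1, which holds idle ribosomes together, was higher in the libraries labelled fes1Δ against fes1ΔL (0.18, adjusted p = 0.0308), a call that ended with total counts, without fes1Δ replicate 1 or 2 and without fes1ΔL replicate 1 or 2, with adjusted p up to 0.191.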

How the data were processed

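Poly(A)-selected RNA was sequenced from 12 libraries kept at 25 °C. The deposited table holds raw whole-number counts per gene, and per the labels' protocols the libraries came from a strand-marking kit. Build sacCer2 and the tools TopHat2 2.0.4, HTSeq 0.6.1, Cufflinks 2.1.1, Picard 1.29, bcl2fastq 1.8.3 and CASAVA are listed per the submitters' processing notes; their roles, the use of strand and the handling of reads that match several genes are not given in the sources used here. A deposited FPKM table served for symbols alone. In 2 further tables, 12 columns match no sample label and were not used, so the planned comparison after heat shock was not made.

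Counts were tested with edgeR 4.0.16 (R 4.3.3; TMM scaling, default expression filter, robust quasi-likelihood F test) in a single fit of 12 libraries with strain as its term, adjusted by Benjamini-Hochberg over 5719 genes; a call is an adjusted p under 0.05. Pair ratios, log2((A + 0.5)/(B + 0.5)) with a mean of at least 10 counts per copy, were tested with limma 3.58.1 and by exact permutation (two-sided in effect, since the F statistic has no sign; smallest possible p 6.494e-05). CPM use TMM-scaled library sizes, and CPM per kb divide by RefSeq coding length. All 137 identifiers were found in R64, which is another build than the files', so no coordinates are given. A count of 3 corresponds to 0.293 to 0.394 CPM. Libraries of a strain were not duplicates of each other (chi-square over its degrees of freedom from 2.615 to 14.89).

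The members, gene lists and the rule for named genes were chosen with earlier results of these data known. The rule names each called member, the 5 highest and 5 lowest in WT, the stalk genes, up to 8 called pairs, the 4 most unequal and 4 most equal pairs, and called genes of the other lists; a few of these are not reported here or drawn. RPL16, RPL26 and the pair RPL22, the neighbouring genes, and RPL31A in fes1ΔL were added once values had been seen. Each test was first run on simulated data. In that run, for fes1Δ against WT, 16% of 25 members set to differ by 1.2 fold were called. At 1.5 fold, 96% of 25 were called. Of 12 pairs set to differ, 0 were called at 1.2 fold and 12 at 1.5 fold. In the real data the RPL16 pair was called with a log2 ratio difference of -0.19 for fes1Δ against WT, which is under 1.2 fold. The simulated shares therefore do not measure what the real tests could detect. Alternatives tried were RLE and total-count scaling, no filter, DESeq2 1.42.0, only the groups compared, a replicate block, each library left out, and for pairs a minimum mean of 100 counts and a pseudocount of 5.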

Additional observations from a re-analysis of the deposited data

How the results depend on the processing

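None of the called fold changes of members and ratios of pairs changed direction under the alternatives run: of 651 recomputed values, 537 kept their call and 114 lost it. Of these 38 fold changes and ratios, 21 were called under every setting, among them all those of RPL9B and RPS22B and the pairs RPL9, RPS22, RPL8, RPS14, RPS9 and RPS26. For the called genes of the other lists, recomputed under alternatives chosen after seeing the data, 262 of 288 values kept their call, 26 lost it and 0 changed direction. The members' median fold change did change sign with total counts, to -0.0381 in fes1Δ and -0.0719 in fes1ΔS against WT. Counts of called members moved by over 1.5 times as follows. With total counts, fes1ΔS gave 18 against WT and 13 against fes1ΔL. With DESeq2, fes1ΔS against WT gave 11 and fes1Δ against fes1ΔL 12. With only the groups compared, fes1Δ gave 4 against WT, 1 against fes1ΔS and 3 against fes1ΔL, and fes1ΔS gave 10 against WT and 9 against fes1ΔL. That fit also ended the calls of SCH9, RPL8A, RPL9A, RPL22B, RPS14B and RPP0 in fes1Δ against WT, of STM1, RPL8A, RPL18B and RPS14B against fes1ΔL and of RPL8A against fes1ΔS. Leaving out a library gave 4 to 13 for fes1Δ against WT, 3 to 12 for fes1ΔS against WT, 0 to 0 for fes1ΔL against WT, 1 to 2 for fes1Δ against fes1ΔS, 3 to 11 for fes1Δ against fes1ΔL, 3 to 5 for fes1ΔS against fes1ΔL, and 7 to 11 for the pairs. The cause of these shifts was not tested. RLE scaling and no filter moved no count that far, nor did the other minimum or pseudocount for the pairs.

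Deviations of same-numbered libraries correlated from -0.226 to 0.325 over 18 pairs, and 6 of 12 libraries correlated best with their own number. These values do not settle whether replicate numbers pair the libraries. With the replicate block the counts were 10 and 9 for fes1Δ and fes1ΔS against WT, 0 for fes1ΔL against WT, and 7 paralog pairs in place of 11, without RPL16, RPL22, RPL26 and RPL31. The 95% intervals of the members' fold changes had a median half-width of 0.13 on the log2 scale before any adjustment, so the change needed for a call was larger.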

Other observations

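The heat shock factor motif, TTC, GAA and TTC with 2 bases of any kind between neighbouring triplets, or GAA, TTC and GAA spaced alike, was found on either strand in the promoter window of 3 members (2.19%), RPL1B, RPL29 and RPL36B, and in 47 of 6001 promoters (0.783%). None of these members was called in any comparison. In the libraries labelled fes1Δ against WT their log2 fold changes were 0.12 for RPL1B (adjusted p = 0.202), -0.08 for RPL29 (adjusted p = 0.766) and 0.08 for RPL36B (adjusted p = 0.455). RPL29 was the lowest protein of the set by its summed WT level, with 231.4, 193.0 and 162.8 CPM in the WT libraries.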
